A study of Mus musculus with 20 samples.

Results

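Genes of cholesterol and fatty acid synthesis were examined in RNA-seq data of the mouse RPE-choroid, the outer eyecup that holds the retinal pigment epithelium (RPE) and the vessels behind it. The 28 genes were chosen by name from 24411 genes of the deposited table: 7 of the mevalonate pathway, 11 of the steps from farnesyl diphosphate to cholesterol, 4 regulators or transporters of sterols and 6 of fatty acid synthesis. All 28 passed the filter on low values, which left 18807 genes for testing. The mice, C57BL/6 by their labels and C57BL/6J for the knockout in the methods of the study, were wild type (WT) or carried a knockout of Stra6 (Stra6-/-), the gene of a receptor that takes up retinol (vitamin A) from the blood, and the study asked how eyes adapt to vitamin A status. From weaning at about 28 days, mice of each genotype ate for 12 weeks a vitamin A sufficient (VAS) diet with 4 IU/g or a vitamin A deficient (VAD) diet with 0 IU/g, which gave the groups VAS WT, VAD WT, VAS Stra6-/- and VAD Stra6-/-. Each group had 5 libraries. By the description of the study, each held both eyecups of 1 mouse after the anterior segment had been removed and the neural retina peeled off. The WT mice came from a supplier and the Stra6-/- mice from a colony of the laboratory, and all were raised to weaning on chow rich in vitamin A.

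Cholesterol is built from acetyl-CoA through mevalonate, farnesyl diphosphate, squalene and lanosterol. Its enzymes are transcribed together by SREBP-2, the product of Srebf2, a transcription factor that is held in the endoplasmic reticulum by the protein Insig1 while sterol is plentiful and is released by cleavage when sterol is low. SREBP-1, the product of Srebf1, acts more on fatty acid genes, and one of its isoforms is raised by liver X receptors, which sense oxidized sterols and act with the retinoid X receptor as partner. In the eye the RPE takes in cholesterol and fatty acids with the photoreceptor discs it engulfs each day, and surface epithelia such as that of the cornea make both lipids for their own barrier.

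Library labels and tissue makeup come before the gene results. The values are normalized counts, that is, reads per gene divided by 1 size factor per library, and the libraries held 13331903 to 21878614 reads. Stra6 had normalized counts of 2661, 2742, 2414, 2449 and 2689 in the VAS WT libraries and 564, 599, 648, 642 and 694 in the VAS Stra6-/- libraries. It had 693, 1340.1, 697, 1529 and 669 in the VAD WT libraries and 2126, 1973, 2116, 2393 and 2208 in the set labelled VAD Stra6-/-. The order of the VAD groups thus went against the genotype labels, since Stra6 was higher in every library of the set labelled VAD Stra6-/- than in every VAD WT library, and VAD WT replicates 1, 3 and 5 were close to the VAS Stra6-/- level (log2 fold change between the VAD groups 1.23 ± 0.18 (SE), adjusted p = 3.92e-06). Xist, the RNA of the inactive X chromosome, had 7.69 to 38.4 in VAS WT and 15320.2 to 18052 in VAS Stra6-/-, while the Y-linked gene Ddx3y had 981 to 1193 and 0 to 1.02, so that on the VAS diet genotype and sex cannot be told apart. Of the VAD WT libraries, replicates 2 and 4 had Xist at 10912 and 11767 and replicates 1, 3 and 5 at 174 to 234. Ddx3y was at 75.2 and 80.5 in replicates 2 and 4 and at 1041 to 1133 in replicates 1, 3 and 5. Each library labelled VAD Stra6-/- had both RNAs, Xist at 3569.8 to 4279.6 and Ddx3y at 741 to 969.7, although each is described as the eyecups of 1 mouse. Whether labels were exchanged, RNA of several mice was mixed, or both, was not tested. Every comparison with a VAD group below is a comparison of libraries by their labels, with this limit. The SEs and p-values below measure the spread between libraries, which may not be that between mice.

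Transcripts of other tissues moved with the groups. RPE markers (12 genes, Rgr among the highest) were present in every library, but the highest sum of the 15 marker lists outside the set labelled VAD Stra6-/- was that of surface epithelium, 14 keratin and other corneal or conjunctival genes led by Krt5 and Krt12. The surface epithelium sum was 720454 to 859018 in VAS WT, 993549 to 1031270.0 in VAS Stra6-/- and 29906 to 39166 in the set labelled VAD Stra6-/-, and none of its genes was at 0 throughout a group. In VAD WT it averaged 1226390 in replicates 1, 3 and 5 and 450752 in replicates 2 and 4. The RPE sum was 112723 to 129262 in VAS WT, 32287 to 58485 in VAD WT, 115186 to 121101 in VAS Stra6-/- and 495204 to 539794 in the set labelled VAD Stra6-/-. The sebaceous and meibomian gland list, cells known for lipid synthesis, was low and rested on the epithelial gene Fabp5, with Mc5r and Dgat2l6 at 0 in every WT library. In bulk tissue, fewer cells of a type and less RNA per cell cannot be told apart, and the part of tissue makeup in the results on the synthesis genes was not tested.

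**Figure D1:**
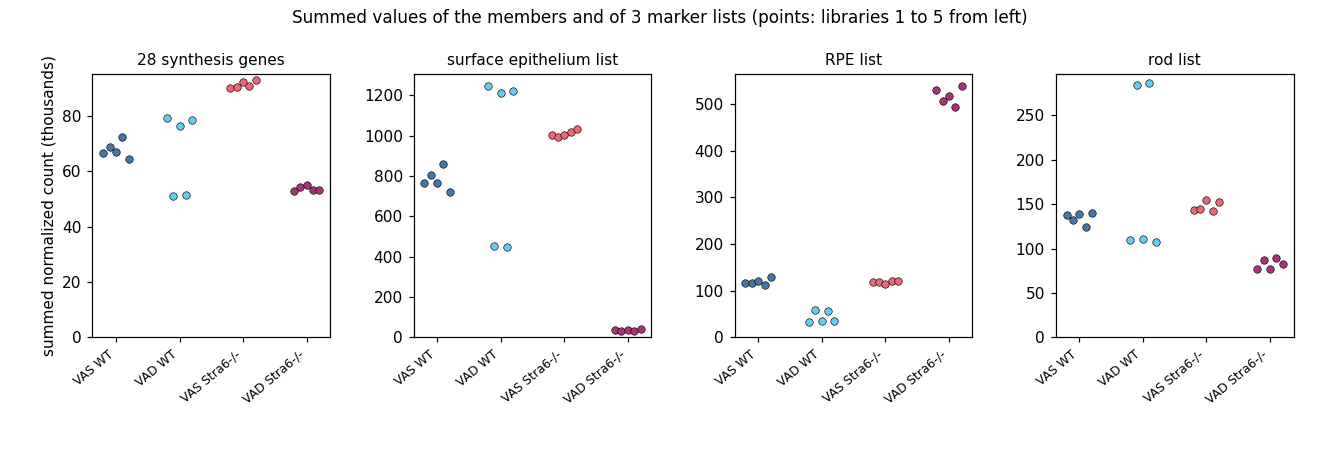
Summed normalized counts, scaled as the axis label states, of the 28 synthesis genes and of the surface epithelium, RPE and rod marker lists, with 1 point per library in the 4 groups. The synthesis genes summed to 90101 to 93160.5 in VAS Stra6-/- and to 53014 to 54974 in the set labelled VAD Stra6-/-. In these genes and in the surface epithelium, RPE and rod lists, VAD WT split into replicates 1, 3 and 5 and replicates 2 and 4.

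Promoter sequence was available for 22 of the 28 genes (RefSeq, GRCm38.p6; 27 annotated starts), as the 250 bases before each start. Fdps, Fdft1, Sqle, Stard4, Scd1 and Scd2 had no entry. A sterol element-like motif, TCACNCCAC, was searched on both strands beside the palindromic E-box CACGTG, to which factors of the SREBP kind can also bind, the CCAAT box CCAAT and the GC box GGGCGG, and matches of different motifs did not overlap in these windows. The sterol element-like motif was found for 1 of the 22 genes, against 1.22% of the 27025 genes with a promoter, and the E-box for 4 against 6.86%. The CCAAT box was found for 18 of the 22 (81.8%) against 37.5% of all genes, and the GC box also for 18, against 35.4%. These are matches of letters only. The windows that hold the sterol element-like motif or the E-box are shown because their genes, Hmgcs1, Insig1, Hsd17b7, Sc5d and Dhcr7, are SREBP-regulated genes whose values are given below. Each is written 5′ to 3′ in the direction of the gene, with the matched motif in capitals.
Hmgcs1 (chr13:119690101-119690350, + strand): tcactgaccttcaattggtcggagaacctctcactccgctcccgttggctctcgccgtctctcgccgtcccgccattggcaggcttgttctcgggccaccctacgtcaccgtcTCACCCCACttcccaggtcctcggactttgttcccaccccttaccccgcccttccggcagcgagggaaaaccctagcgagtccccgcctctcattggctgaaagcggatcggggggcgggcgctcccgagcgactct
Insig1 (chr5:28071162-28071411, + strand): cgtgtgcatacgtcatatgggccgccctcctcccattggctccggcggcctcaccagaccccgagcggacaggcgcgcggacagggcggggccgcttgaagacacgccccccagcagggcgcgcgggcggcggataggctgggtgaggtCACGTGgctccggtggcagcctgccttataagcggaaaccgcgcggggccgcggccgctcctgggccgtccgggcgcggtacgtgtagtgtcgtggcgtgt
Hsd17b7 (chr1:169969206-169969455, - strand): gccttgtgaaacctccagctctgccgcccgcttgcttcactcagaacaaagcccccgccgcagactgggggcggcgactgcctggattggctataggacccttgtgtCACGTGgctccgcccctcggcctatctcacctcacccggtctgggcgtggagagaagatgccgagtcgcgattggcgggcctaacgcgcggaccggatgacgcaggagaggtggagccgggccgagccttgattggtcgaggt
Sc5d (chr9:42264301-42264550, - strand): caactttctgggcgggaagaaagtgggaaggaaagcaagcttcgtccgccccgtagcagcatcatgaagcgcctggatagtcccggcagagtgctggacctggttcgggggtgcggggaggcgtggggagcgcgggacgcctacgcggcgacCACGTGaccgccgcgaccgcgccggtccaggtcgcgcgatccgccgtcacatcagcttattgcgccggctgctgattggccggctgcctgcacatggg
Dhcr7 (chr7:143823149-143823398, + strand): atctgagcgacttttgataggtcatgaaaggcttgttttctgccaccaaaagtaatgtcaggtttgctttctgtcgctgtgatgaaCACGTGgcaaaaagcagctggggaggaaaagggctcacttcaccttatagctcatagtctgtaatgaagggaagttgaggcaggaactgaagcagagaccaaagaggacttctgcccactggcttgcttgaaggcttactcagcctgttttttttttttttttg
The match starts 137 bases before the start of Hmgcs1, 101 before that of Insig1, 143 before that of Hsd17b7, 98 before that of Sc5d and 164 before that of 1 of the 3 starts of Dhcr7. Of these 5 genes, Hmgcs1, Insig1 and Hsd17b7 were higher in VAS Stra6-/- than in VAS WT, and all 5 were lower in the set labelled VAD Stra6-/- than in VAS Stra6-/-, as described below. Of all 28 genes, 15 were higher in the first of these comparisons, beside 15.9% of all genes tested. In the second, 22 were lower, beside 28.8% of all genes tested. A link of the motifs to these changes was not tested.

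Per kilobase of the principal transcript (GENCODE vM21, GRCm38), the highest level among the 28 genes in VAS WT was that of Fdps, the farnesyl diphosphate synthase, at 4637 ± 212 normalized counts per kb (mean ± SD, n = 5). Scd2, a stearoyl-CoA desaturase, followed at 2436 ± 139, then the HMG-CoA synthase Hmgcs1 at 1338 ± 105 and the sterol C4-methyl oxidase Msmo1 at 1163 ± 96.8. The libraries of Fdps and Scd2 did not overlap, and neither did those of Scd2 and Hmgcs1, but those of Hmgcs1 and Msmo1 did. At the other end, the sterol transfer protein gene Stard4 had 37.0 ± 7.12 per kb and the sterol reductase gene Hsd17b7 80.6 ± 11, apart from each other and from Acaca above them. From rank 7, held by Acly, to rank 21, held by Lss, every gene overlapped its next neighbour in the order. In VAS Stra6-/- the order began in the same way, with Fdps at 4007 ± 166 and Scd2 at 3679 ± 62.0. In the set labelled VAD Stra6-/-, Scd2 came first at 2360.5 ± 113 per kb and Fdps had 1032 ± 69.7.

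**Figure D2:**
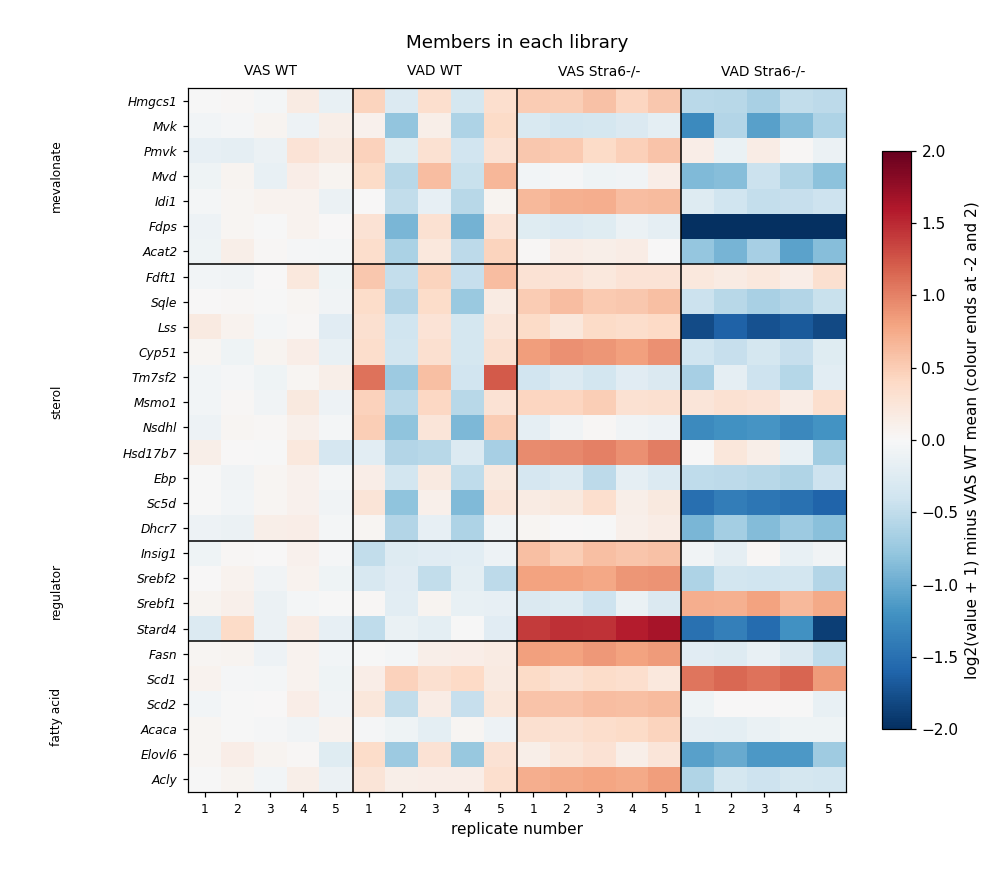
Heat map of log2(normalized count + 1) minus the VAS WT mean for the 28 genes (rows, by role) in the 20 libraries (columns, by group and replicate number), with colours ending at -2 and 2. The 5 VAS Stra6-/- columns are alike, the VAD WT columns of replicates 2 and 4 differ from those of replicates 1, 3 and 5 in the mevalonate and sterol rows, and the rows of Srebf1 and Scd1 are red in the last group where most rows are blue.

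The comparison of VAS Stra6-/- with VAS WT asks, by the labels, what loss of the receptor does on the sufficient diet. The groups also differed in sex, by Xist and Ddx3y, and in the source of the mice. These cannot be told apart from genotype here. Of the 28 genes, 15 were higher in VAS Stra6-/- and 2 lower at an adjusted p under 0.05, and 11 did not pass. Over all genes tested, 15.9% were called higher and 10.8% lower in this comparison. The median log2 fold change was 0.36 for the 28 genes and 0.02 for all genes tested. Every one of the 17 genes called had no overlap between the groups. Overlap was not counted over all genes, so this describes these genes only. By role, 3 of the 7 mevalonate genes, 4 of the 11 sterol genes, 3 of the 4 regulators and 5 of the 6 fatty acid genes were higher. Surface epithelium markers moved too, with 6 of 14 higher and 3 lower, while of 12 RPE markers none was higher and 4 were lower. Other lists moved more: all 7 cone markers were lower (median log2 fold change -2.07), as were 5 of 6 lens markers (-2.52) and 6 of 9 markers of myelinating glia (-0.84), and 7 of 8 skeletal muscle markers were higher (1.30). Their part in the result was not tested.

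Among the regulators, Stard4, which carries cholesterol between membranes, had normalized counts of 489.6, 515, 507, 552 and 586 in VAS Stra6-/- against 154, 243, 172, 207 and 166 in VAS WT. No VAS WT library reached the lowest VAS Stra6-/- library, and there was a log2 fold change of 1.5 ± 0.15 (SE, adjusted p = 2.58e-07), the highest of the 28. Srebf2, the gene of the main activator of cholesterol synthesis, had 5272, 5292, 5175, 5557 and 5661 against 3052, 3188, 2887, 3179 and 2853. Its groups lay far apart relative to their spread, and it rose 1.78-fold (log2 0.83 ± 0.07, adjusted p = 5.07e-08). Insig1, which retains SREBP when sterol is plentiful and is itself an SREBP target, had 4130.1, 3825, 4108, 3962 and 4079 against 2549, 2747, 2736, 2875 and 2656 and rose 1.48-fold (adjusted p = 1.82e-06). Srebf1 went the other way, with 2502, 2557, 2286, 2789.6 and 2494 against 3165, 3277, 2826, 2969 and 3046. The highest VAS Stra6-/- library of Srebf1 lay just under the lowest VAS WT library, and the log2 fold change was -0.28 ± 0.07 (adjusted p = 0.00364).

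In the mevalonate pathway the genes that rose were Idi1, Hmgcs1 and Pmvk. Idi1, the isopentenyl diphosphate isomerase, had 3247, 3415, 3429.6, 3210.2 and 3239 in VAS Stra6-/- against 2031, 2132, 2175, 2177 and 1910.2 in VAS WT. The groups were separate, and the log2 fold change was 0.67 ± 0.10 (adjusted p = 2.12e-05). Hmgcs1, which joins acetoacetyl-CoA and acetyl-CoA, had 6576, 6477, 6949, 6240.4 and 6706 against 4599, 4719, 4486, 5181 and 4186, and the lowest of the former was above the highest of the latter (log2 fold change 0.51 ± 0.12, adjusted p = 0.00324). Pmvk, the phosphomevalonate kinase, changed from 832 ± 126 to 1165 ± 59.0 (adjusted p = 0.00896). The thiolase Acat2, mevalonate kinase Mvk, decarboxylase Mvd and Fdps had log2 fold changes from -0.30 (Mvk) to 0.09 (Acat2) and did not pass. For Fdps the values were 5423, 5310.4, 5425, 5887 and 5640.4 in VAS Stra6-/- and 5952, 6609, 6349, 6710.0 and 6422 in VAS WT. All 5 values of Fdps were lower in VAS Stra6-/-, the interval of the log2 fold change was -0.61 to 0.19 (95%), and without VAD WT replicates 2 and 4 the SE was smaller and this gene was called lower (log2 -0.21 ± 0.05, adjusted p = 8.36e-04).

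Of the enzymes from farnesyl diphosphate to cholesterol, Hsd17b7, Cyp51, Sqle and Lss were higher. Hsd17b7, the 3-keto reductase of sterol demethylation, had 711, 718, 743, 696 and 754 against 402, 371, 367, 427 and 293 and rose 1.96-fold (log2 0.97 ± 0.14, adjusted p = 3.00e-05). Cyp51, the lanosterol demethylase, had 4068, 4254, 4165, 3986 and 4251 against 2336, 2131, 2359.7, 2493 and 2046 and rose 1.83-fold (adjusted p = 1.52e-05). The squalene epoxidase Sqle, a rate-limiting step, went from 2654 ± 75.9 to 3905 ± 126 (adjusted p = 0.0118). Lanosterol synthase, Lss, had 2208, 1968, 2206, 2159 and 2231 against 1917, 1764, 1637, 1725 and 1438, separate by a narrow gap. Its call (log2 0.35 ± 0.12, adjusted p = 0.0364) was lost without VAS WT replicate 2, 3, 4 or 5 or without VAS Stra6-/- replicate 1, 3, 4 or 5, at log2 fold changes of 0.29 to 0.37, and also with TMM scaling (0.33), with edgeR (0.32) and with no intensity trend (0.35). Ebp, the sterol isomerase, which lies on the X chromosome, was lower (855 ± 73.0 against 1065 ± 44.9, log2 -0.32 ± 0.11, adjusted p = 0.0414), and that call was lost in 10 of the 20 fits that leave out 1 library: without any VAS WT library, without VAS Stra6-/- replicate 1, 2, 3 or 5, or without replicate 2 of the set labelled VAD Stra6-/-, at -0.34 to -0.27. The other 6 sterol genes (Fdft1, Tm7sf2, Msmo1, Nsdhl, Sc5d and Dhcr7) had log2 fold changes from -0.31 (Tm7sf2) to 0.40 (Msmo1, adjusted p = 0.0674). Nsdhl, which also lies on the X chromosome, had -0.08 (adjusted p = 0.822). Msmo1 was called higher without VAD WT replicate 1, 2 or 4, with the same log2 fold change.

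Of the fatty acid genes, Fasn, Acly, Scd2, Acaca and Scd1 rose. Fasn, the fatty acid synthase, had 5308, 5227, 5501, 5227 and 5435 in VAS Stra6-/- against 3083, 3130.0, 2782, 3146 and 2879.6 in VAS WT. The groups did not overlap, and the log2 fold change was 0.83 ± 0.07 (adjusted p = 1.05e-08). Acly, which makes cytosolic acetyl-CoA from citrate, had 5449, 5535, 5698, 5543 and 5866 against 3259, 3427, 3161, 3566 and 3044 (log2 0.77 ± 0.06, adjusted p = 2.5e-08). Scd2 had 19664, 19812, 20299, 20070.0 and 20487 against 12717, 13185, 13319.5, 14552 and 12679, a 1.51-fold difference (adjusted p = 9.20e-04). The acetyl-CoA carboxylase Acaca, which makes malonyl-CoA, rose by less (1497 ± 56.1 to 1923 ± 71.7, adjusted p = 4.97e-05). The desaturase Scd1, the close relative of Scd2, did so as well (1004 ± 47.8 to 1251 ± 57.4, adjusted p = 0.00238). Elovl6, which elongates palmitate, had 2523 ± 141 against 2202 ± 210.3 and did not pass (adjusted p = 0.459). With only the VAS Stra6-/- and VAS WT libraries in the fit, 19 of the 28 genes were called higher in place of 15 and 5 lower in place of 2, and the counts were the same without VAD WT replicates 2 and 4. In the latter fit Elovl6 (0.20), Fdft1 (0.26), Msmo1 (0.40) and Sc5d (0.20) were added to the genes called higher. Mvk (-0.30), Tm7sf2 (-0.31) and Fdps (-0.21) were added to those called lower. The log2 fold changes were those of the fit of all libraries, and the share of all genes called was not set beside these counts.

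**Figure D3:**
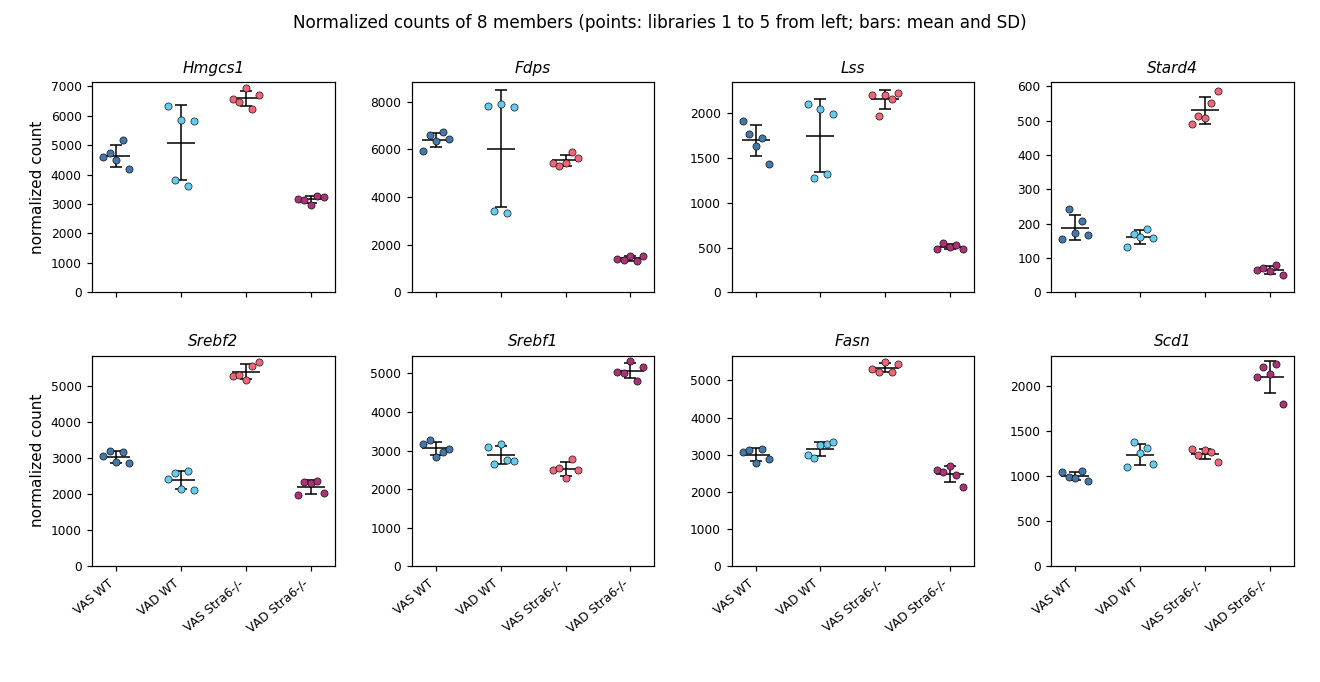
Normalized counts of Hmgcs1, Fdps, Lss, Stard4, Srebf2, Srebf1, Fasn and Scd1 in the 4 groups, on axes that start at 0, with 1 point per library (replicates 1 to 5 from the left) and bars for mean and SD. Stard4 stands at 489.6 to 586 in VAS Stra6-/- and 49.9 to 79.9 in the set labelled VAD Stra6-/-, Srebf1 shows the opposite order, and Hmgcs1, Fdps and Lss fall into 3 high and 2 low libraries in VAD WT.

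By the labels, the comparison of VAD WT with VAS WT asks what the deficient diet does in mice with the receptor, but Stra6 in VAD WT replicates 1, 3 and 5 was at 669 to 697, close to the 564 to 694 of VAS Stra6-/-. Scd1 was the 1 gene of the 28 called higher, Srebf2 and Insig1 were called lower, and 25 did not pass, beside 3.29% of all genes called higher and 5.5% lower. The median log2 fold change of the 28 was -0.07, and that of all genes 0.00166. Over all genes, DESeq2 on recovered reads called 1059 higher and 1082 lower where limma called 618 and 1034. Scd1 had 1106, 1378, 1254, 1316 and 1139 in VAD WT against 1051, 988, 976, 1058 and 949.8 in VAS WT. Every VAD WT library was above every VAS WT library, with a log2 fold change of 0.30 ± 0.07 (adjusted p = 0.011). Srebf2 had 2420.3, 2589, 2149.6, 2648 and 2116, all under the VAS WT libraries (log2 -0.35 ± 0.07, adjusted p = 0.00342). Insig1 had 1918, 2267, 2307, 2329.7 and 2532, also all lower (log2 -0.26 ± 0.07, adjusted p = 0.0154). With only the VAD WT and VAS WT libraries in the fit, Scd1 and Insig1 no longer passed. Near the threshold, Acly (log2 0.19 ± 0.06, adjusted p = 0.0712) was called higher without VAS WT replicate 4, VAD WT replicate 2 or 4, or replicate 1 of the set labelled VAD Stra6-/-, at 0.19 to 0.22. Without VAD WT replicate 1, Hsd17b7 and Dhcr7 were called lower (log2 -0.52 and -0.36), which made 4 genes lower in place of 2. Hsd17b7 (log2 -0.46 ± 0.14, adjusted p = 0.0506) was also called lower without VAS WT replicate 5, VAD WT replicate 4 or replicate 2 or 5 of the set labelled VAD Stra6-/- (-0.54 to -0.46), and Idi1 without VAD WT replicate 5 (-0.30).

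The 5 VAD WT libraries were not alike in these genes. Fdps had 7804, 3416, 7889, 3309.7 and 7757 in replicates 1 to 5, so that replicates 1, 3 and 5 averaged 7817 and replicates 2 and 4 averaged 3363. Hmgcs1 had 6323, 3805, 5839, 3624 and 5818, and Lss had 2106, 1280.4, 2046, 1326 and 1995, with the same 3 libraries high. Tm7sf2, a sterol C14-reductase, had 936, 267, 671, 339 and 1028 and the widest ratio between the 2 sets of libraries, 2.9-fold. In 19 of the 28 genes each of replicates 1, 3 and 5 was above both of replicates 2 and 4, in 3 (Scd1, Srebf2 and Stard4) each was below both, and in 6 they overlapped. The ratio of the means was above 1.5 in 17 genes, and 1.59 at the median. Summed by role, the ratio was 1.85 for the mevalonate genes and 1.85 for the sterol genes, 1.36 for the fatty acid genes and 0.98 for the regulators. Fasn and Acaca, which overlapped between the 2 sets, had ratios of 1.03 and 0.947. Replicates 1, 3 and 5 were above every VAS WT library in 18 genes, whereas replicates 2 and 4 were below every VAS WT library in 22. Such counts were not made over all genes tested, so the split is not shown to be particular to these genes. Over all genes, leaving out replicates 2 and 4 changed the calls against VAS WT from 618 higher and 1034 lower to 3306 and 3818. Replicates 2 and 4 also differed from the others in Stra6 (1340.1 and 1529 against 669 to 697), in Xist, in the surface epithelium sum (the ratio of replicates 1, 3 and 5 to replicates 2 and 4 was 2.72), in the RPE sum (0.585), in the rod sum (0.384), in the sums of sclera and tendon (0.238), skeletal muscle (0.252) and lens genes (4.02) and, at the extreme, in the erythrocyte sum (0.0812). The part of these differences in the split was not tested.

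VAD WT replicates 2 and 4 were left out as an alternative with earlier results of these data known, and they are the libraries that are low in most of the 28 genes, so the values that follow describe the remaining libraries and are no independent test of the diet. Without them, 17 of the 28 genes were higher in VAD WT than in VAS WT and 3 were lower (Srebf2, Insig1 and Hsd17b7), beside 17.6% of all genes called higher and 20.3% lower in that fit. The median log2 fold change of the 28 was then 0.23, and that of all genes -0.02. The genes called higher were 5 of the mevalonate genes, 8 of the sterol genes and 4 of the fatty acid genes. Tm7sf2 had the highest difference (0.97 ± 0.12), followed by Mvd (0.55 ± 0.10) and the squalene synthase Fdft1 (0.53 ± 0.06). For Fdps, Sqle, Nsdhl, Sc5d, Acat2, Scd2 and Elovl6 the sign of the difference turned from negative, where they had not passed, to positive. Srebf2 (-0.44 ± 0.06) and Insig1 (-0.28 ± 0.07) stayed lower with or without these libraries, and Scd1 stayed higher (0.21 ± 0.07).

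**Figure D4:**
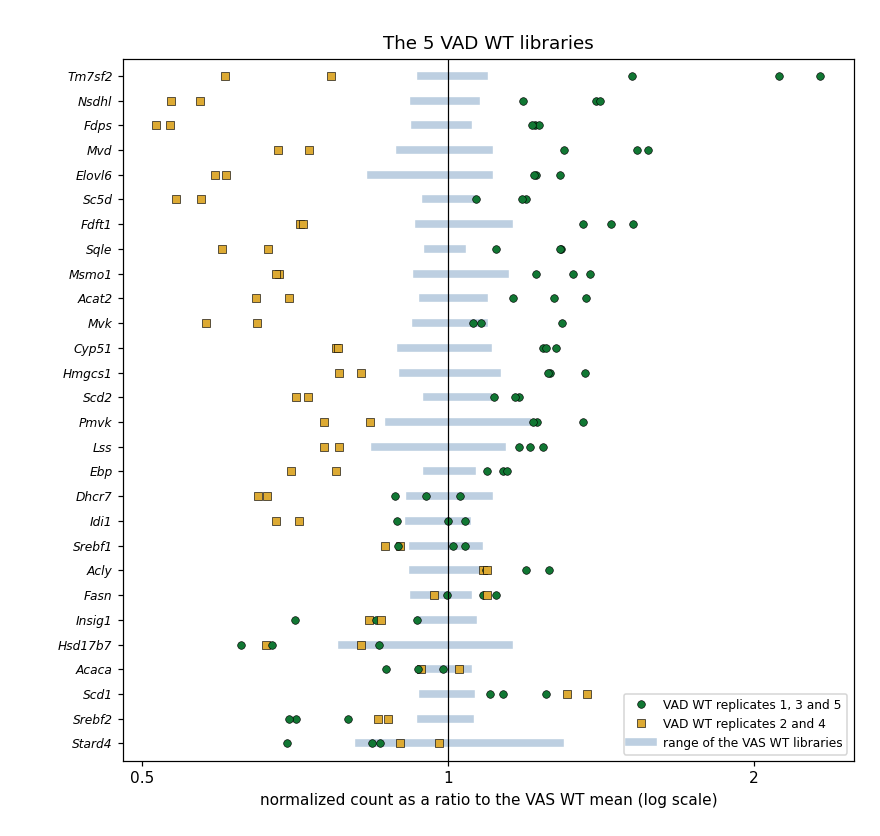
Normalized count of the 28 genes in each VAD WT library as a ratio to the VAS WT mean (log scale), with circles for replicates 1, 3 and 5, squares for replicates 2 and 4 and a band for the range of the VAS WT libraries, sorted by the ratio between the 2 sets. The sets stand apart from Tm7sf2 (2.9-fold) down to Idi1 (1.4-fold), overlap for Srebf1, Acly, Fasn, Insig1, Hsd17b7 and Acaca, and are in the opposite order for Scd1, Srebf2 and Stard4.

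The comparison of the set labelled VAD Stra6-/- with VAS Stra6-/- asks, by the labels, what the deficient diet does without the receptor, and Stra6 in the former went against the label. Here 22 of the 28 genes were lower and 2, Srebf1 and Scd1, higher, beside 28.8% of all genes called lower and 24.4% higher. The median log2 fold change was -1.0 for the 28 and -0.07 for all genes. All 24 genes called had groups that did not overlap, which was not counted over all genes. All 7 mevalonate genes, 7 of the 11 sterol genes, 3 of the 4 regulators and 5 of the 6 fatty acid genes were lower. In the same comparison all 14 surface epithelium markers were lower and 11 of the 12 RPE markers higher, and the summed surface epithelium level was 33682 ± 3811 against 1008650 ± 15132 (SD). Other lists moved too. All 8 sclera and tendon markers (median log2 fold change 2.37), all 8 melanin markers (1.28) and all 7 macrophage markers (1.37) were higher. Of 7 cone markers 5 were lower and 1 higher (-2.37). Their part in the result was not tested.

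Stard4 had the steepest fall, to 65.5, 71.3, 63.5, 79.9 and 49.9 from 489.6, 515, 507, 552 and 586 in VAS Stra6-/- (log2 -3.00 ± 0.15, adjusted p = 3.57e-13). This was 0.125 of the VAS Stra6-/- level. Srebf2 fell to 1968, 2343, 2307, 2358 and 2028 (log2 -1.30 ± 0.07, adjusted p = 2.62e-12), and Insig1 to 2570.2, 2398, 2761, 2445 and 2579.7 (log2 -0.66 ± 0.07, adjusted p = 2.72e-08). Srebf1, by contrast, was at 5048, 5017, 5314, 4809 and 5169, above the 2286 to 2789.6 of VAS Stra6-/- (2.01-fold, log2 1.01 ± 0.07, adjusted p = 3.22e-11). No value of the lower group of these 4 genes reached a value of the higher group.

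Fdps fell most among the mevalonate genes, to 1408, 1357, 1524, 1315 and 1526 (log2 -1.96 ± 0.19, adjusted p = 2.09e-08), or 0.257 of its VAS Stra6-/- level. Hmgcs1 was at 3169.7, 3133, 2957, 3283 and 3229.9 (log2 -1.06 ± 0.12, adjusted p = 1.72e-07) and Idi1 at 1744, 1571, 1489, 1515 and 1561 (log2 -1.07 ± 0.10). Acat2, Mvd, Mvk and Pmvk fell by less, with log2 fold changes from -0.94 (Acat2) to -0.48 (Pmvk, adjusted p = 0.00459). Of the sterol genes, Lss was at 486, 548, 507, 526 and 480.3, the largest fall of the enzymes (log2 -2.08 ± 0.12, adjusted p = 4.01e-12). Sc5d, the lathosterol desaturase, was at 794, 865, 825, 797 and 742 against 2444 to 2843 (log2 -1.69 ± 0.17, adjusted p = 2.72e-08). Cyp51, the dehydrogenase Nsdhl, Sqle, Hsd17b7 and the reductase Dhcr7 fell as well, with log2 fold changes from -1.25 (Cyp51) to -0.86 (Dhcr7).

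Fdft1, Tm7sf2, Msmo1 and Ebp did not pass. Msmo1 had 2797, 2919, 2855, 2619 and 2979.6 against 3199.6, 3212, 3331, 2931 and 2966, with a 95% interval of -0.47 to 0.19 for the log2 fold change, and Fdft1 had 2688, 2618, 2684, 2561 and 2898 against 2834, 2802, 2688, 2812 and 2823, with an interval of -0.40 to 0.29. Both pairs of groups overlapped. Differences as large as those of Lss or Fdps lie outside these intervals. Msmo1 and Ebp passed with the same log2 fold changes (-0.14 and -0.20) where only these groups were in the fit. Fdft1 shares 774 exon bases (18.3% of its annotated exons) with Ctsb on the opposite strand, which had a mean of 19709, and Tm7sf2 shares 532 (12.1%) with Vps51 on the same strand. Fdps shares 1124 exon bases (26.7%) with the gene model Gm43738 on the same strand. Whether the counting used strand is not given in the sources used here, so the values of these genes are uncertain, and so is the split of reads between Scd1 and Scd2, which are alike in sequence.

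In the fatty acid genes, Elovl6 was at 1035, 1091, 988, 988 and 1333 (log2 -1.22 ± 0.18, adjusted p = 6.03e-06). Acly was at 2162, 2589, 2466, 2566 and 2537 and Fasn at 2574, 2522, 2703, 2447 and 2117, against 5449 to 5866 and 5227 to 5501 in VAS Stra6-/- (log2 -1.19 ± 0.06 and -1.11 ± 0.07). Scd2 and Acaca fell too, with log2 fold changes of -0.64 and -0.50. Scd1 was the exception with 2105, 2217, 2138, 2246 and 1806 against 1305, 1234, 1290.3, 1266 and 1161, and rose 1.68-fold (log2 0.75 ± 0.07, adjusted p = 1.55e-08). Scd1 and Srebf1 are both known as targets of liver X receptors, as background, and a part of these receptors in the changes was not tested. Of 13 efflux and liver X receptor genes, 6 were higher and 6 lower in this comparison.

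**Figure D5:**
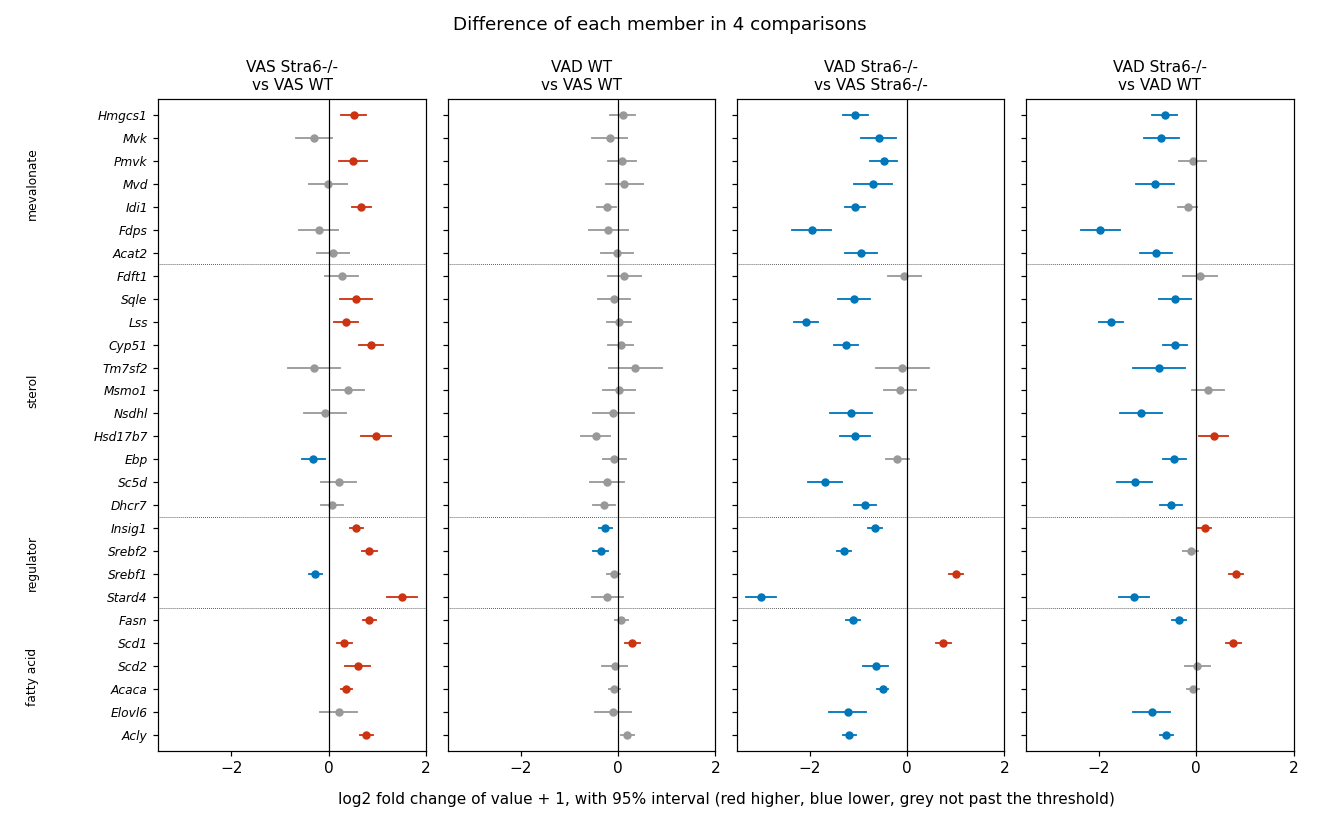
Log2 fold change (of the normalized count + 1) of each of the 28 genes with its 95% interval in 4 comparisons, grouped by role, red for higher, blue for lower and grey for not past an adjusted p of 0.05. VAS Stra6-/- against VAS WT has 15 red points, VAD WT against VAS WT has 3 coloured points, and the comparisons of the set labelled VAD Stra6-/- have 22 and 17 blue points.

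The set labelled VAD Stra6-/- was also compared with VAD WT, the comparison of genotypes on the deficient diet. Of the 28 genes 17 were lower and 4 higher, beside 29.6% of all genes called lower and 26.2% higher, with a median log2 fold change of -0.45 for the 28 and -0.05 for all genes. Groups did not overlap for 10 of the 17 and 2 of the 4, which was not counted over all genes either. All 14 surface epithelium markers were lower and 11 of the 12 RPE markers higher in this comparison too. Among other lists, all 8 melanin, 7 of 8 sclera and tendon, 7 of 8 skeletal muscle and 6 of 7 macrophage markers were higher. All 7 cone markers were lower. The part of these lists in the result was not tested. Fdps (log2 -1.97 ± 0.19, adjusted p = 1.98e-08) and Lss (log2 -1.75 ± 0.12, adjusted p = 7.54e-11) were lower than in every VAD WT library, replicates 2 and 4 included. The same held for Stard4 (-1.28 ± 0.15), Sc5d (-1.26 ± 0.17) and Nsdhl (-1.13 ± 0.20). Srebf1 (0.82 ± 0.07, adjusted p = 9.81e-10) and Scd1 (0.76 ± 0.07, adjusted p = 1.11e-08) were above every VAD WT library, as both were above every VAS Stra6-/- library. Srebf2 was at 1968 to 2358 against 2116 to 2648 and did not pass (log2 -0.11 ± 0.07, adjusted p = 0.201, 95% interval -0.27 to 0.04).

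Several smaller differences of this comparison depended on single libraries. Insig1 (log2 0.17 ± 0.07, adjusted p = 0.0328) and Hsd17b7 (0.36 ± 0.14, adjusted p = 0.0389) were called higher with overlapping groups. Insig1 no longer passed without VAD WT replicate 1 or without replicate 1, 3 or 5 of the set labelled VAD Stra6-/- (0.11 to 0.17), and Hsd17b7 without VAD WT replicate 2, 3 or 5 or without replicate 1, 2, 3 or 4 of the set labelled VAD Stra6-/- (0.28 to 0.37). Neither passed after TMM scaling or with edgeR. With only these groups in the fit, neither passed, nor did Sqle, Cyp51 and Tm7sf2. Sqle (log2 -0.44 ± 0.16) was no longer called lower without VAD WT replicate 1, 3 or 5 (-0.38 to -0.33), nor Tm7sf2 (-0.77 ± 0.26) without replicate 1 or 5 (-0.59 and -0.55). Idi1 (-0.17 ± 0.10, adjusted p = 0.131) was called lower without VAD WT replicate 2 or 4 (-0.24 and -0.26). Without VAD WT replicates 2 and 4 together, 21 genes were lower and 4 higher, and Fdft1 and Scd2 turned from positive to negative (-0.32 and -0.25). The share of all genes called in that fit was not set beside these counts.

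The diet difference of the Stra6-/- groups minus that of the WT groups was tested as an interaction. It was negative and past the threshold for 21 of the 28 genes and positive for 2, beside 24.8% of all genes called negative and 19.5% positive. The median was -0.83 for the 28 and -0.09 for all genes. Stard4 had -2.79 ± 0.21 (adjusted p = 7.60e-10), Lss -2.10 ± 0.17 and Fdps -1.76 ± 0.27. Srebf1 (1.10 ± 0.09, adjusted p = 4.54e-09) and Scd1 (0.45 ± 0.10, adjusted p = 0.00117) were the positive genes. Fdft1, Msmo1, Tm7sf2, Ebp and Mvk did not pass, and Mvk (-0.42 ± 0.25) and Tm7sf2 (-0.46 ± 0.37) did so without VAD WT replicate 2 (-0.57 and -0.73). Without VAD WT replicates 2 and 4 the 5 genes passed too, which made 26 negative. The share of all genes called in that fit was not set beside this count. The groups enter this term with the label problem of the VAD groups, and the comparisons above share control groups, so their counts are not independent of each other.

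Srebf1 and Srebf2 changed in opposite directions in VAS Stra6-/- against VAS WT and in the set labelled VAD Stra6-/- against VAS Stra6-/-. Their ratio of normalized counts within a library cancels the size factor, and such ratios were compared between groups only. The ratio of Srebf1 to Srebf2 was 1.04, 1.03, 0.979, 0.934 and 1.07 in the VAS WT libraries and 0.475, 0.483, 0.442, 0.502 and 0.441 in VAS Stra6-/-. It was 2.57, 2.14, 2.30, 2.04 and 2.55 in the set labelled VAD Stra6-/-, so that the 3 groups did not overlap. In VAD WT it was 1.28, 1.02, 1.48, 1.04 and 1.29, with replicates 1, 3 and 5 above and replicates 2 and 4 within the VAS WT range. The ratio of Scd1 to Scd2 was 0.0727 to 0.0827 in VAS WT, 0.0567 to 0.0664 in VAS Stra6-/- and 0.151 to 0.171 in the set labelled VAD Stra6-/-. In VAD WT it was 0.0709, 0.146, 0.0850, 0.136 and 0.0736, with replicates 2 and 4 the highest. The ratio of Hmgcs1 to Fdps, which measures whether enzymes of 1 pathway keep step, was 0.652 to 0.773 in VAS WT, 1.06 to 1.28 in VAS Stra6-/- and 1.94 to 2.5 in the set labelled VAD Stra6-/-, and these 3 groups did not overlap. In VAD WT it was 0.810, 1.11, 0.740, 1.09 and 0.750, with replicates 3 and 5 in the VAS WT range, replicates 2 and 4 in the VAS Stra6-/- range and replicate 1 between them.

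Other genes of lipid handling, 58 in 3 lists, were counted in the same fits. In VAS Stra6-/- against VAS WT, 10 of 17 genes of sterol regulation and uptake were higher and none lower, 2 of 13 efflux and liver X receptor genes were higher and 4 lower, and 4 of 28 further fatty acid and triglyceride genes were higher and 1 lower, beside 15.9% of all genes called higher and 10.8% lower. The median log2 fold changes of the lists were 0.32, -0.06 and 0.07. Among the efflux genes, Abcg4, a sterol exporter, had 483 ± 24.4 against 745 ± 122 (log2 -0.61 ± 0.12, adjusted p = 5.29e-04). Cyp46a1, which hydroxylates cholesterol for export from neurons, had 98.1 ± 7.48 against 182 ± 39.8 (log2 -0.87 ± 0.21, adjusted p = 0.00358). In VAD WT against VAS WT, 3 of the 58 were higher and 8 lower, beside 3.29% and 5.5% of all genes. Abcg4 was higher (0.75 ± 0.12), as was Cyb5r3 (0.20 ± 0.06), a reductase that feeds electrons to desaturases. The fatty acid elongase Elovl7 (-1.02 ± 0.16) and the glucose-responsive transcription factor gene Mlxipl (-0.94 ± 0.25) were lower.

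In the set labelled VAD Stra6-/- against VAS Stra6-/-, 26 of the 58 other genes were higher and 19 lower, beside 24.4% and 28.8% of all genes. By list, 7 genes of sterol regulation and uptake were higher and 5 lower, 6 efflux and liver X receptor genes were higher and 6 lower, and 13 further fatty acid and triglyceride genes were higher and 8 lower. Soat1, which esterifies cholesterol for storage, had 1356 ± 82.6 against 291 ± 22.1 (log2 2.22 ± 0.27, adjusted p = 3.81e-07). Elovl7 had 2379 ± 100.5 against 551 ± 26.6 (log2 2.11 ± 0.16, adjusted p = 3.80e-10). Against VAD WT, 30 of the 58 were higher and 16 lower in the set labelled VAD Stra6-/-, beside 26.2% and 29.6% of all genes. Soat1 (3.24 ± 0.27) and Elovl7 (3.11 ± 0.16) were again higher, and Abcg4 (-2.16 ± 0.12) and Cyp46a1 (-1.73 ± 0.21) lower. The interaction passed for 25 of the 58 in the positive and 16 in the negative direction, beside 19.5% and 24.8% of all genes.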

How the data were processed

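By the description of the study, RNA-seq libraries of mouse RPE-choroid were made from 20 mice, 5 per group. They were grouped by genotype and diet per the labels. Given Xist and Ddx3y in the VAD groups, the number of mice behind those libraries is uncertain. The deposited values are a normalized signal: per the submitters' processing notes the authors aligned reads with STAR 2.5.3a, counted genes with RSEM 1.2.30 and used DESeq2 1.32.0, and each value is a whole number of reads divided by 1 size factor per library. Whole reads were recovered from the steps for 100% of values (tolerance 1e-06). Count tools used 19 libraries, leaving out VAD Stra6-/- replicate 1, whose step was near 1 (1.00752), although its reads were recovered too. The libraries held 13331903 to 21878614 reads (median 17785927). The strand setting of the counting is not given in the sources used here.

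Genes with a total of at least 5 reads (18807 of 24411) were fitted with limma 3.58.1 in R 4.3.3 on log2(value + 1), with 1 mean per group over all 20 libraries and an intensity trend; folds are on that scale, which understates changes of low genes. A gene was called at a Benjamini-Hochberg adjusted p under 0.05 over all genes tested. Scripts were tested on simulated data. Alternatives were edgeR 4.0.16 and DESeq2 1.42.0 on recovered reads, TMM scaling, pseudocounts of 0.5 and 4, no filter or a mean of at least 10, only the groups compared, no trend, a log2 fold change beyond 2, the replicate number as a block, and leaving out each library or VAD WT replicates 2 and 4. edgeR called 2666 genes higher and 2214 lower in VAS Stra6-/- against VAS WT, 685 and 844 in VAD WT against VAS WT, 4426 and 5029 in VAD Stra6-/- against VAS Stra6-/-, and 4219 and 5721 in VAD Stra6-/- against VAD WT.

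All 28 genes are named. Of 58 other pathway genes, those named are among the 2 with the largest change per comparison and direction that passed, had a mean of at least 100 in a group and did not overlap; Stra6 was named as the targeted gene and markers as the 2 highest of a list, while Xist, Ddx3y, Mc5r and Dgat2l6 were named after their values were seen. The 28 genes and all lists were chosen with earlier results of these data known. Single values of some listed genes are not reported here. Same-numbered libraries of different groups did not deviate together (correlations -0.0686 to 0.0654 over 20 pairs), and no within-group pair agreed within counting noise.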

Additional observations from a re-analysis of the deposited data

Results flagged for a closer look

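Among 112 sets of 5 libraries (28 genes in 4 groups), 4 held a library far from the other 4 by Dixon's criterion, where chance gives about 1 in 20. Mvd in VAS Stra6-/- replicate 5 was at 786 against 681 to 706 in the others, and Fdft1 in replicate 3 at 2688 against 2802 to 2834. Lss in VAS Stra6-/- replicate 2 was at 1968 against 2159 to 2231. Acly in replicate 1 of the libraries labelled VAD Stra6-/- was at 2162 against 2466 to 2589.

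For 23 genes the diet difference differed between the Stra6-/- and WT groups by the interaction test, with the label of the VAD Stra6-/- libraries in doubt as described. In the mevalonate pathway the interaction (log2) was -0.92 for Acat2, -1.16 for Hmgcs1, -0.57 for Pmvk, -0.83 for Mvd, -0.84 for Idi1 and -1.76 for Fdps. In the sterol steps it was -1.0 for Sqle, -2.10 for Lss, -1.31 for Cyp51, -1.05 for Nsdhl, -0.61 for Hsd17b7, -1.47 for Sc5d and -0.58 for Dhcr7. Among the regulators it was -0.40 for Insig1, -0.94 for Srebf2, 1.10 for Srebf1 and -2.79 for Stard4. In fatty acid synthesis it was -1.38 for Acly, -0.43 for Acaca, -1.19 for Fasn, -1.12 for Elovl6, 0.45 for Scd1 and -0.57 for Scd2.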

How the results depend on the processing

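In VAS Stra6-/- against VAS WT, the count of the 28 genes called lower was 5 with only the groups compared and without VAD WT replicates 2 and 4, and 1 with no trend. The count called higher was 19 in the first 2 of these and 14 with no trend, with TMM and with edgeR, where Lss was lost. In VAD WT against VAS WT, 17 were higher without VAD WT replicates 2 and 4, 2 with DESeq2, and none higher and 1 lower with only the groups compared. In VAD Stra6-/- against VAD WT, 2 were higher with TMM, with edgeR and with only the groups compared. With a log2 fold change beyond 2, 0 were higher and 0 lower in VAS Stra6-/- against VAS WT, in VAD WT against VAS WT and in VAD Stra6-/- against VAD WT, and 0 were higher and 2 lower in VAD Stra6-/- against VAS Stra6-/- and in the interaction. Of the 58 other genes, 9 were lower in VAS Stra6-/- and 1 higher and 5 lower in VAD WT (each against VAS WT) with only the groups compared. Without VAD WT replicates 2 and 4, 8 were lower in VAS Stra6-/-, and 12 higher and 21 lower in VAD WT. With a log2 fold change beyond 2, 0 and 0 passed in each of these, 3 higher and 5 lower in VAD Stra6-/- against VAS Stra6-/-, 7 and 1 against VAD WT, and 3 and 4 in the interaction. The cause was not tested, and the share of all genes called in each fit was not set beside these counts.

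Among differences that passed the threshold in the main or the alternative fit, reversed signs were seen only without VAD WT replicates 2 and 4. Changes of sign among differences that passed in neither fit were not counted. In VAD WT against VAS WT they were 0.29 for Fdps, 0.30 for Sqle, 0.41 for Nsdhl, 0.20 for Sc5d, 0.34 for Acat2, 0.20 for Scd2 and 0.32 for Elovl6, and against VAD WT they were -0.32 for Fdft1 and -0.25 for Scd2 in the libraries labelled VAD Stra6-/-.

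Leaving out 1 library in turn, the 28 genes gave 14 to 16 higher and 1 to 2 lower in VAS Stra6-/- against VAS WT, 1 to 2 and 2 to 4 in VAD WT against VAS WT, 2 and 22 in VAD Stra6-/- against VAS Stra6-/-, 2 to 4 and 15 to 18 against VAD WT, and 2 and 21 to 23 in the interaction. The 58 other genes gave 13 to 17 and 3 to 7, 2 to 5 and 5 to 11, 24 to 28 and 18 to 19, 26 to 30 and 16 to 19, and 22 to 26 and 16 to 17 in the same order. The replicate numbers do not pair the libraries, and with the number as a block 1 gene was lower in VAS Stra6-/- against VAS WT (Ebp was lost) and 3 in VAD WT against VAS WT (Hsd17b7 was added).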
